A study of Mus musculus with 6 samples.

Results

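miR-26a-5p and miR-26b-5p are the guide strands of the miR-26 family, a small family of broadly expressed microRNAs (miRNAs). They were chosen by name from a table of mature mouse miRNAs, and both were present, 2 of 1960 listed rows and of the 806 rows with a count in any library. The samples were immune cells isolated from the livers of female wildtype C57BL/6J mice aged 10 weeks, with 2 libraries in each of 3 groups. In ConA+D8THC, hepatitis was induced by retro-orbital injection of 12.5 mg/kg of the lectin concanavalin A (ConA), a T cell mitogen. The cannabinoid D8THC (delta-8-tetrahydrocannabinol) was injected into the peritoneum at 20 mg/kg in DMSO and corn oil, first 15 to 18 h ahead of ConA and a second time 30 min later than it. ConA+Vehicle mice were injected with the same dose of ConA, and controls without D8THC were given the DMSO and corn oil carrier. Vehicle mice had the carrier, no ConA and no hepatitis. The labels call the libraries biological replicates; how many mice each library came from, and how long after ConA, is not stated in the labels.

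A miRNA binds messenger RNAs mainly through its seed, bases 2 to 8 from the 5′ end, and lowers their translation and stability. miR-26 is known for restraining cell cycle genes and Ezh2, the histone methyltransferase of the Polycomb complex. Its transcription is lowered by MYC, a transcription factor that lymphocytes induce when they are activated, so the family is usually described as higher in resting than in dividing cells. In mouse liver, miR-26a is known as a brake on hepatocyte proliferation.

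The 2 guide strands are shown because they share a seed and differ elsewhere (RefSeq, build GRCm38.p6, the assembly behind mm10). Capitals mark the seed.
miR-26a-5p: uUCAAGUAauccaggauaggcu
miR-26b-5p: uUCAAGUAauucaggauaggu
Counted from the 5′ end, miR-26b-5p differs from miR-26a-5p by C11U and C21U and is 21 rather than 22 bases long. Among 1679 mouse mature miRNA names in RefSeq, these 2 were the ones with the seed UCAAGUA. Both lie on the plus strand in genes of the Ctdsp family, phosphatases of the RNA polymerase II tail. Mir26b (chr1:74394310-74394394) is in an intron of Ctdsp1 and Mir26a-1 (chr9:119031796-119031885) is in an intron of Ctdspl. Mir26a-2 (chr10:126995530-126995613) is in an intron of the longest Ctdsp2 transcript, and its last base is the first base of an exon of shorter Ctdsp2 transcripts (GENCODE M21). The hairpins are printed with miR-26a-5p or miR-26b-5p in capitals, to show that both miR-26a genes give the same guide strand.
Mir26a-1 hairpin: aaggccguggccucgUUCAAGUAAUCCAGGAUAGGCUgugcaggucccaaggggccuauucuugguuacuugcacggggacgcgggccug
Mir26a-2 hairpin: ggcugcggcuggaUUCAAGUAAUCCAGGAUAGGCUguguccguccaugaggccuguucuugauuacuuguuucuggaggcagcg
Mir26b hairpin: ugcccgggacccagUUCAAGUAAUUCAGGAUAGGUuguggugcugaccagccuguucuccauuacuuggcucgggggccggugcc
Counts of miR-26a-5p therefore cannot be assigned to Mir26a-1 or Mir26a-2.

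Library totals ran from 322764 to 1172389 counts, with both ConA+Vehicle libraries the shallowest. Levels are given as CPM, counts scaled to library size, after adjustment by TMM, a method that evens out differences in composition. The samples labelled immune cells also held marker miRNAs of other liver cells, and all markers had counts in all libraries. Whether such cells were present was not tested. The pan-haematopoietic arms of miR-142a took 7.72% to 11.2% of a library in ConA+D8THC, 9.03% to 10.3% in ConA+Vehicle and 2.53% to 7.31% in Vehicle. The endothelial arms of miR-126a took 20.7% to 26.7% in ConA+D8THC, 12.8% to 13.2% in ConA+Vehicle and 32.7% to 34.2% in Vehicle. The 5 hepatocyte markers took 5.18% to 7.15%, 17.1% to 19.7% and 8.34% to 13.9% in the same order of groups. Of the immune markers, the myeloid arms of miR-223 took 1.48% to 2.17% in ConA+D8THC, 2.75% to 2.91% in ConA+Vehicle and 0.333% to 0.353% in Vehicle, so the groups did not overlap. The 3 lymphocyte miRNAs together took 0.637% to 1.04% in ConA+D8THC, 0.868% to 1.11% in ConA+Vehicle and 0.562% to 0.809% in Vehicle. These ranges overlapped between ConA+D8THC and both other groups, and ConA+Vehicle lay above Vehicle without overlap. The sum joins unlike members. The mean of miR-181a-5p was lower in ConA+Vehicle than in Vehicle (370 against 502 CPM). The means of miR-150-5p (7669 against 5443 CPM) and miR-342-3p (1893 against 1148 CPM) were higher. In such bulk samples, fewer cells of a type and less RNA per cell cannot be told apart.

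miR-26a-5p and miR-26b-5p were among the abundant miRNAs of these cells, 12th and 11th by mean level over all libraries. miR-26a-5p had 16042 and 13466 counts in ConA+D8THC, 6266 and 5354 in ConA+Vehicle, and 18955 and 28515 in Vehicle. This corresponded to 16555 and 19158 CPM in ConA+D8THC, 15623 and 17719 CPM in ConA+Vehicle, and 26157 and 24996 CPM in Vehicle. The Vehicle libraries were both above all 4 libraries from ConA-treated mice, while the ConA+D8THC and ConA+Vehicle libraries overlapped.

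miR-26b-5p had 18697 and 13863 counts in ConA+D8THC, 8395 and 6898 in ConA+Vehicle, and 16607 and 19955 in Vehicle. Its levels were 19295 and 19723 CPM in ConA+D8THC, 20931 and 22829 CPM in ConA+Vehicle, and 22917 and 17493 CPM in Vehicle. The Vehicle libraries held both its highest and its lowest value. Vehicle replicate 1, the higher one, also had the larger share of miR-142a counts (7.31%, against 2.53% in Vehicle replicate 2), and the part of cell composition in this spread was not tested.

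**Figure D1:**
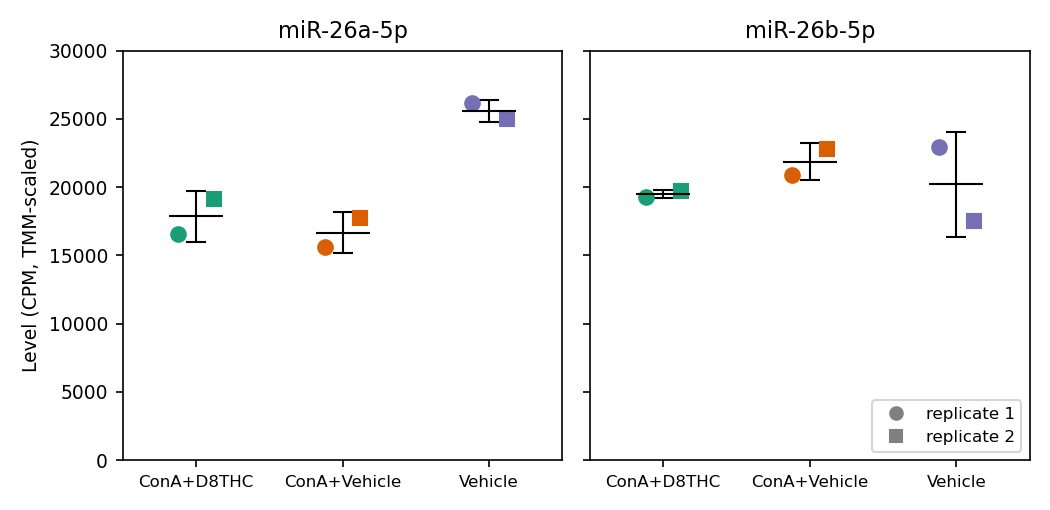
Levels of miR-26a-5p (left) and miR-26b-5p (right) in CPM on TMM-scaled library sizes, by group. Points are libraries, bars are the group mean and SD (n = 2); for miR-26a-5p the Vehicle libraries, at 26157 and 24996 CPM, lie above the other 4, and for miR-26b-5p the Vehicle libraries span the range of the others.

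Ordered by mean level, miR-26a-5p was highest in Vehicle (25577 ± 821 CPM, SD, n = 2), then ConA+D8THC (17856 ± 1841 CPM) and ConA+Vehicle (16671 ± 1483 CPM). The step between Vehicle and ConA+D8THC exceeded the SDs, and the step between ConA+D8THC and ConA+Vehicle did not. SDs of 2 libraries do not test a difference, and neither step passed the edgeR test given below. miR-26b-5p was highest in ConA+Vehicle (21880 ± 1343 CPM), then Vehicle (20205 ± 3836 CPM) and ConA+D8THC (19509 ± 303 CPM), and no neighbours in that order differed beyond the SD of Vehicle. In the ranking of miRNAs by group mean, miR-26a-5p stood 14th in ConA+D8THC, 14th in ConA+Vehicle and 9th in Vehicle, and miR-26b-5p stood 12th in each of the 3 groups.

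The comparison of ConA+Vehicle with Vehicle asks whether the family differs in mice with ConA hepatitis. miR-26a-5p fell 1.53-fold, with a log2 fold change of -0.62 ± 0.21 (SE) and a 95% interval of -1.08 to -0.16 (edgeR quasi-likelihood test, adjusted p = 0.0382). Its ConA+Vehicle libraries were both below its Vehicle libraries, as was true of 29.3% of the miRNAs tested. miR-26b-5p, with the same seed, did not pass, at log2 0.11 ± 0.22 with an interval of -0.37 to 0.60 (adjusted p = 0.748), and its groups overlapped. So 1 of the 2 members was called, lower, in a comparison in which 36.7% of the 297 miRNAs tested were called and 16.8% were called lower. By log2 fold change miR-26a-5p stood 73rd from the lowest and miR-26b-5p 154th of 297.

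The call of miR-26a-5p was near its threshold. It ended in 9 of the 15 other analyses, including each of the 6 that left out a library. Without a Vehicle library the adjusted p was 0.0688 (replicate 1) and 0.0651 (replicate 2), without a ConA+Vehicle library 0.263 (replicate 1) and 0.223 (replicate 2), and without a ConA+D8THC library, which enters through the shared estimate of spread, 0.0682 (replicate 1) and 0.156 (replicate 2). The size of the change moved less, with log2 fold changes between -0.72 and -0.51 over the 15. DESeq2 (log2 -0.72, adjusted p = 0.0125) and limma-voom (-0.62, adjusted p = 0.0330) called it, and these tools called 15.5% and 16.2% of all miRNAs lower. With miR-122-5p and both arms of miR-126a, the dominant hepatocyte and endothelial miRNAs, left out of the table, the change was -0.67 (adjusted p = 0.0276). Leaving these rows out changes the scaling and keeps any miR-26a-5p that came from those cells. The endothelial share was lower in ConA+Vehicle than in Vehicle, and the pan-haematopoietic, myeloid, lymphocyte and hepatocyte shares were higher. The part of these shares in the result was not tested.

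**Figure D2:**
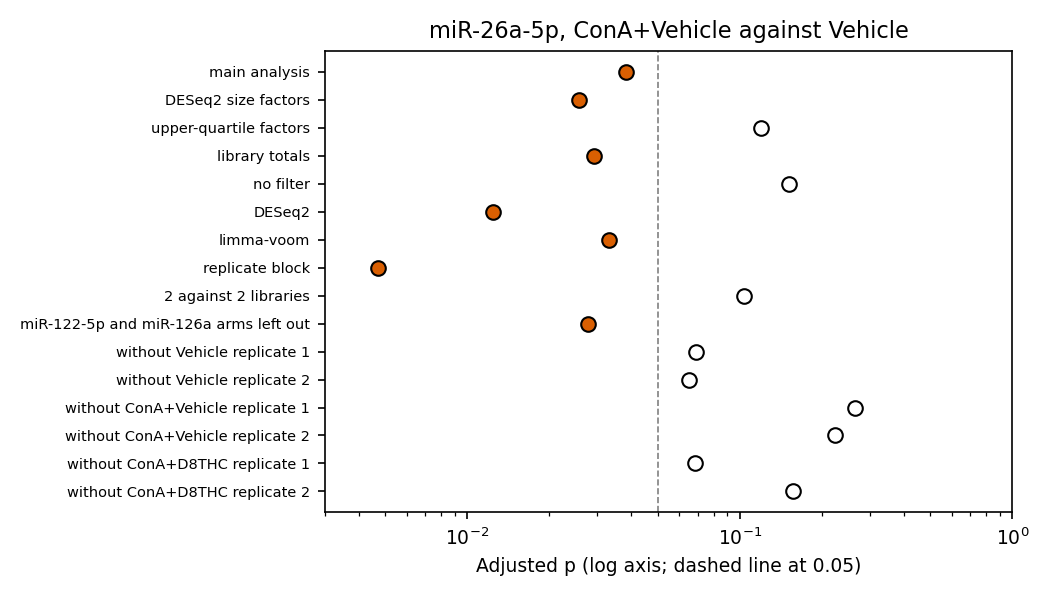
Adjusted p (horizontal log axis) of miR-26a-5p for ConA+Vehicle against Vehicle in the main analysis and the 15 others. Filled points are under 0.05; the 6 analyses that left out a library, from 0.0651 to 0.263, all lie to the right of the dashed line.

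Setting ConA+D8THC against ConA+Vehicle asks whether D8THC changed the family in mice given ConA. Neither member passed by edgeR in this comparison, in which 3.7% of miRNAs were called. DESeq2 and limma-voom also called 0 of the 2, and before adjustment 0 of the 2 were under 0.05. miR-26a-5p was at log2 0.10 ± 0.21 (interval -0.36 to 0.56, adjusted p = 0.890), which leaves room for values from 0.779-fold to 1.47-fold. For miR-26b-5p the log2 fold change was -0.17 ± 0.22 (interval -0.65 to 0.32, adjusted p = 0.804), or 0.639-fold to 1.24-fold. The miR-26b-5p libraries did not overlap, being lower in ConA+D8THC, as was true of 25.3% of miRNAs in that direction.

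Against Vehicle, ConA+D8THC showed values near those of ConA+Vehicle for both members; these comparisons share the Vehicle libraries. miR-26a-5p was at log2 -0.52 ± 0.21 (interval -0.98 to -0.06) and did not pass (unadjusted p = 0.0307, edgeR adjusted p = 0.0753), although the groups did not overlap. miR-26b-5p was at log2 -0.05 ± 0.22 (interval -0.53 to 0.43, adjusted p = 0.865). In this comparison 32.7% of the 297 miRNAs were called, and 37% had groups that did not overlap and were lower in ConA+D8THC. Whether the change of miR-26a-5p differed with and without D8THC is the ConA+D8THC against ConA+Vehicle test above, which it did not pass.

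**Figure D3:**
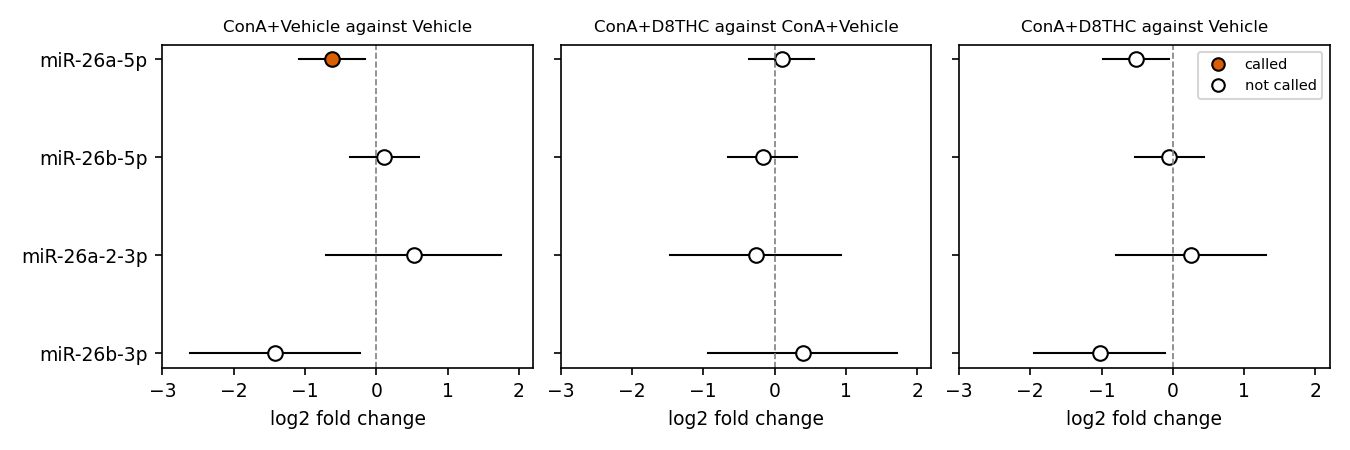
Log2 fold changes with 95% intervals (edgeR) of the guide strands and of the 2 opposite strands that were tested, one panel per comparison. The filled point, called at an adjusted p under 0.05, is miR-26a-5p in ConA+Vehicle against Vehicle (-0.62); the intervals of the opposite strands are wider than those of the guide strands.

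The balance within the family needs no scaling, since both counts come from the same library. There were 1.17 and 1.03 counts of miR-26b-5p per count of miR-26a-5p in ConA+D8THC, 1.34 and 1.29 in ConA+Vehicle, and 0.876 and 0.700 in Vehicle. miR-26b-5p was thus the more abundant member in the 4 libraries from ConA-treated mice and miR-26a-5p in both Vehicle libraries, and the 3 groups did not overlap, with ConA+D8THC in between. Of single miRNAs, 29.3% were lower in ConA+Vehicle than in Vehicle without overlap. How many ratios of other miRNA pairs separate the groups was not computed, so the separation is not shown to be particular to this family. The 95% counting intervals (Wilson) of the libraries nearest each other were 1.14 to 1.19 in ConA+D8THC replicate 1 and 1.24 to 1.34 in ConA+Vehicle replicate 2. Intervals also lay apart within Vehicle (0.858 to 0.895 and 0.687 to 0.713) and within ConA+D8THC, though not within ConA+Vehicle. They cover counting error and not the spread between libraries, so their separation does not test a difference between groups. How well each sequence was captured in the libraries was not measured, so a ratio of 1 need not mean equal numbers of molecules.

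The mean ratio was 1.10 ± 0.0962 in ConA+D8THC, 1.31 ± 0.0363 in ConA+Vehicle and 0.788 ± 0.125 in Vehicle (SD, n = 2 each). On the log2 scale it was higher by 0.75 in ConA+Vehicle than in Vehicle and by 0.48 in ConA+D8THC than in Vehicle, and the difference of ConA+D8THC minus ConA+Vehicle was -0.26. An exact two-sided permutation test gave p = 0.333 for each of these 3 comparisons, the smallest value that groups of 2 allow, so the test could not pass. The pair together took 3.80% and 3.96% of the library in ConA+D8THC, 3.85% and 3.80% in ConA+Vehicle, and 4.72% and 4.13% in Vehicle. The Vehicle libraries thus had the largest combined share, and the other 4 lay within 0.161 percentage points of each other.

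**Figure D4:**
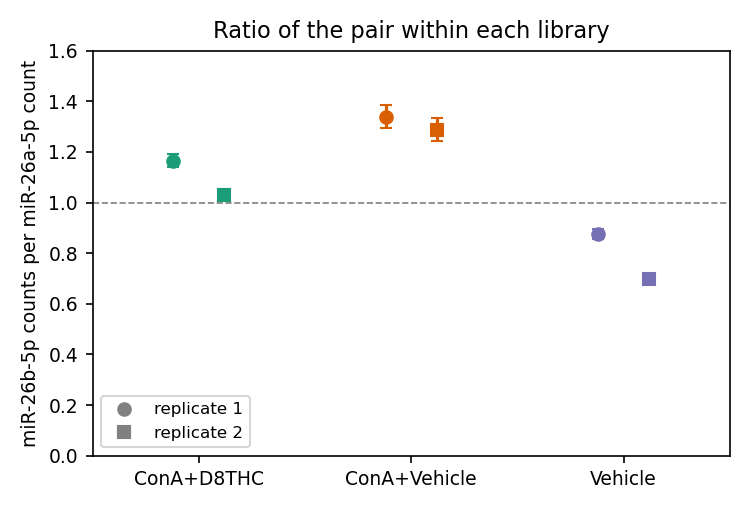
Counts of miR-26b-5p per count of miR-26a-5p in each library, by group, with 95% counting intervals. The ConA+D8THC libraries, at 1.17 and 1.03, lie between the ConA+Vehicle libraries, at 1.34 and 1.29, and the Vehicle libraries, at 0.876 and 0.700; the dashed line marks equal counts.

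The opposite strands of the hairpins, usually discarded when the guide strand is loaded, are specific to each gene and so separate Mir26a-1 from Mir26a-2. They are printed with bases 2 to 8 in capitals because these differ from the guide seed.
miR-26a-1-3p: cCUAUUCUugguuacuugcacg
miR-26a-2-3p: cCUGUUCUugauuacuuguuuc
miR-26b-3p: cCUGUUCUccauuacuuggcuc
miR-26a-2-3p and miR-26b-3p share bases 2 to 8, and miR-26a-1-3p differs from both there.

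The opposite strands were sparse. miR-26a-1-3p had 2 and 3 counts in ConA+D8THC, 1 and 0 in ConA+Vehicle, and 2 and 9 in Vehicle, and it was too low to be tested. The count of 0 allows up to 9.93 CPM in that library (3 counts), above every value measured elsewhere for this strand. miR-26a-2-3p had 14 and 8 counts in ConA+D8THC, 5 and 6 in ConA+Vehicle, and 10 and 10 in Vehicle. It was at log2 0.52 ± 0.55 in ConA+Vehicle against Vehicle (adjusted p = 0.523), opposite in sign to the guide strand, and its groups overlapped.

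miR-26b-3p had 12 and 7 counts in ConA+D8THC, 3 and 3 in ConA+Vehicle, and 18 and 25 in Vehicle. In CPM this was 12.4 and 9.96 in ConA+D8THC, 7.48 and 9.93 in ConA+Vehicle, and 24.8 and 21.9 in Vehicle, with both Vehicle libraries above the others. Both ConA+Vehicle values are at the floor, the 3 counts that a count of 0 allows. Of all miRNAs tested, 29.3% lay below Vehicle without overlap in ConA+Vehicle, and 37% did so in ConA+D8THC. miR-26b-3p did not pass in ConA+Vehicle against Vehicle (log2 -1.42 ± 0.54, interval -2.61 to -0.23, adjusted p = 0.0610) or in ConA+D8THC against Vehicle (log2 -1.03 ± 0.42, adjusted p = 0.0769). In edgeR, the DESeq2 size factors brought the first of these under the threshold (adjusted p = 0.0466). A fit of the 4 libraries alone did so too (0.0403). The DESeq2 test itself (adjusted p = 0.295), limma-voom (0.0932) and edgeR with no filter (0.201) did not. Per 10000 guide strands there were 5.73 ± 0.968 opposite strands of miR-26b in ConA+D8THC, 3.96 ± 0.548 in ConA+Vehicle and 11.7 ± 1.19 in Vehicle. For miR-26a, both opposite strands together, there were 9.07 ± 1.28 in ConA+D8THC, 10.4 ± 1.15 in ConA+Vehicle and 6.50 ± 0.235 in Vehicle (SD, n = 2 each). The counts behind these ratios are few, with 6 miR-26b-3p counts in ConA+Vehicle in all.

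The miRNAs whose levels followed each member most closely were found by Pearson's r over the 6 libraries, on log2 CPM, among the other miRNAs with a mean of at least 100 CPM (146 of them). For miR-26a-5p they were miR-497a-5p (r = 0.976), miR-10b-5p (0.964), miR-195a-5p (0.958), miR-151-5p (0.950) and let-7e-5p (0.947). miR-195a and miR-497a come from a single precursor transcript and carry the seed of the miR-15 and miR-16 family. They were chosen on these same libraries, so their values are a description. miR-497a-5p averaged 163 ± 39.2 CPM in ConA+D8THC, 147 ± 7.16 in ConA+Vehicle and 324 ± 26.7 in Vehicle, and let-7e-5p averaged 1623 ± 204, 1253 ± 129 and 2915 ± 525 CPM in the same order (SD, n = 2 each). The values of r rest largely on the distance of the Vehicle libraries from the other 4.

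For miR-26b-5p the closest were miR-144-5p (r = 0.846), miR-29b-3p (0.804), let-7a-1-3p (0.801), miR-338-3p (0.779) and miR-32-5p (0.778). miR-144-5p comes from the erythroid hairpin next to miR-451a. miR-29b-3p averaged 3007 ± 22.7 CPM in ConA+D8THC, 2962 ± 282 in ConA+Vehicle and 2565 ± 965 in Vehicle. miR-26a-5p and miR-26b-5p had r = -0.10 with each other, 72nd of the 146 in the order for miR-26a-5p. All these values are descriptions over 6 libraries that share their groups, depth and cell makeup.

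MYC lowers several other miRNA families besides miR-26, known from lymphoma cells, and these were put in a list with the miR-26 members: let-7, miR-15a and miR-16, miR-22, miR-29, miR-30, miR-34a, miR-146a, miR-150, and miR-195a with miR-497a. In ConA+Vehicle against Vehicle, of the 26 listed, all tested, 9 fell, 1 rose and 16 did not pass, while 16.8% of all miRNAs were called lower and 19.9% higher. Without the miR-26 members 8 of 24 fell. The median log2 fold change of the list was -0.17, against 0.10 over all 297. Besides miR-26a-5p the 9 were let-7b-5p, let-7c-5p, let-7d-5p, let-7e-5p, miR-30b-5p, miR-30c-5p, miR-195a-5p and miR-497a-5p. They are not independent results, since several share a family and miR-195a and miR-497a come from a single precursor transcript. miR-30c-5p (log2 -1.26 ± 0.21, adjusted p = 0.000935) and miR-30b-5p (-1.20 ± 0.21, adjusted p = 0.00134) fell further than miR-26a-5p by value. The 1 that rose was miR-29c-3p (log2 0.62 ± 0.22, adjusted p = 0.0448), which DESeq2 did not call.

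The most abundant members of this list were not called. miR-16-5p was at log2 0.54 ± 0.21 (adjusted p = 0.0705), miR-29a-3p at 0.46 ± 0.20 (0.104), let-7a-5p at -0.29 ± 0.20 (0.293) and let-7f-5p at -0.13 ± 0.23 (0.723). Without ConA+Vehicle replicate 1 the members called lower were 3, without ConA+Vehicle replicate 2 they were 4, and without Vehicle replicate 2 they were 6. Those called higher were 3 without Vehicle replicate 1, 2 without ConA+D8THC replicate 1, and 0 without any one of the other 4 libraries. In ConA+D8THC against Vehicle 9 fell, 0 rose (2 before adjustment, 0 with DESeq2, 1 with limma-voom) and 17 did not pass, with a median of -0.30 against -0.06 over all. Of all miRNAs 14.1% were called lower and 18.5% higher in this comparison. The 9 were the 8 of ConA+Vehicle against Vehicle other than miR-26a-5p, and miR-22-3p. The lower calls numbered 3 without ConA+D8THC replicate 1 or without Vehicle replicate 2, and 5 without ConA+D8THC replicate 2 or without ConA+Vehicle replicate 2, and without Vehicle replicate 1 there were 3 higher calls. In ConA+D8THC against ConA+Vehicle the edgeR test called 0 of the 26, with 1 lower at an unadjusted p under 0.05 and 0 called by DESeq2 or limma-voom.

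Other miRNAs known to target Ezh2, as miR-26a does, are miR-101, miR-138, miR-214 and let-7. In ConA+Vehicle against Vehicle, 3 of the 8 tested members of this list with miR-26a-5p and miR-26b-5p fell and 1 rose, with a median of -0.45. Without these members 2 of 6 fell, let-7b-5p and let-7c-5p, and the median was -0.53; over all miRNAs 16.8% were called lower and 19.9% higher. miR-101b-3p rose (log2 1.46 ± 0.26, adjusted p = 0.00134), while let-7c-5p fell (-0.81 ± 0.23, adjusted p = 0.0185), and miR-101a-3p was at -0.03 ± 0.28. The lower calls of this list ended when Vehicle replicate 2 or either ConA+Vehicle library was left out.

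The description of miR-26 as a marker of resting cells was set against lists of resting lymphocyte and of activation-induced miRNAs. Like the lists of MYC-lowered and Ezh2-targeting miRNAs above, they were drawn up with earlier results of these data known. Their counts are therefore descriptions and not independent support. In ConA+Vehicle against Vehicle the resting lymphocyte list had 3 of 10 members lower (miR-26a-5p, miR-30b-5p and miR-30c-5p), 2 higher (miR-101b-3p, and miR-342-3p by edgeR alone) and 5 not called, with a median of 0.04, close to the 0.10 of all miRNAs. Without the miR-26 members 2 of 8 were lower and 2 higher, with a median of 0.22, and the shares of all miRNAs were the 16.8% lower and 19.9% higher given above. The higher calls were 3 without Vehicle replicate 1, and 1 without Vehicle replicate 2 or either ConA+Vehicle library. miR-150-5p, the classical miRNA of resting lymphocytes, was at log2 0.50 ± 0.29 (adjusted p = 0.216). Of the activation-induced list 8 of 12 rose by edgeR, 0 fell (0 also at an unadjusted p under 0.05, in DESeq2 and in limma-voom) and 4 did not pass, with a median of 1.51, where 19.9% of all miRNAs rose; miR-155-5p, for one, averaged 8807 ± 450 CPM in ConA+Vehicle and 1301 ± 297 CPM in Vehicle. Other abundant members that rose were miR-21a-5p, an inducible miRNA (log2 1.54 ± 0.38), and miR-19b-3p (1.78 ± 0.31) and miR-20a-5p (1.67 ± 0.39) of the proliferation-linked miR-17 to miR-92 cluster. The rest were miR-17-5p and miR-18a-5p of that cluster, miR-210-3p, induced by hypoxia, and miR-221-3p. The pan-haematopoietic, myeloid, lymphocyte and hepatocyte shares were also higher in ConA+Vehicle than in Vehicle, and the endothelial share was lower. The part of these shares in the list values was not tested. Lower values of miR-26a-5p stood beside raised activation-induced miRNAs. miR-26b-5p did not pass, and the other called members of the resting lymphocyte list moved both ways.

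**Figure D5:**
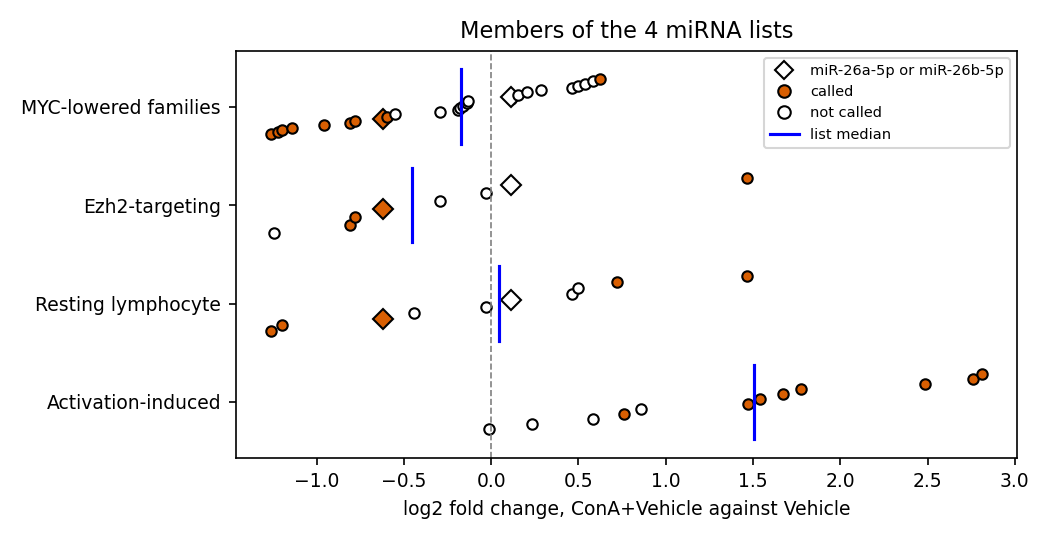
Log2 fold changes in ConA+Vehicle against Vehicle of the tested members of the 4 lists; diamonds are miR-26a-5p and miR-26b-5p, filled symbols were called by edgeR, and the vertical bar is the list median. The medians are -0.17, -0.45, 0.04 and 1.51 from top to bottom, and the diamonds lie at -0.62 (filled) and 0.11 (open) in the lists that hold them.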

How the data were processed

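The deposited values are raw counts, one row per mature miRNA. Per the series text, the authors prepared QIAseq miRNA libraries, sequenced them on a NextSeq 550, and aligned and counted reads in QIAGEN's GeneGlobe portal; the labels give build mm10. The aligner, the miRNA release, the treatment of reads that match several miRNAs and the use of molecular identifiers are not stated there. Cross-counting between miR-26a-5p and miR-26b-5p was therefore not assessed.

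The count model was edgeR 4.0.16 in R 4.3.3. filterByExpr by group kept 297 miRNAs, holding at least 99.9% of each library. The model (TMM factors, robust glmQLFit, glmQLFTest) fitted all 6 libraries by group, with Benjamini-Hochberg adjustment over the 297 miRNAs and calls at an adjusted p under 0.05. An SE is the size of the log2 fold change divided by the root of its F statistic. The procedure was also run on simulated counts, with random changes in ConA+Vehicle alone. These were not built to copy the shifts of abundant miRNAs seen here, so they check the code and not the calls. Alternatives were DESeq2 1.42.0, limma-voom (limma 3.58.1), other scalings, no filter, a replicate block, fits of 2 groups, removal of dominant miRNAs, and leaving out each library. Counting intervals and the floor of 3 counts cover counting error only. Ratios used scipy 1.17.1 and plots matplotlib 3.10.9 in Python 3.11.15.

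The members and lists were chosen with earlier results of these data known. The text names the members, their opposite strands, the 5 miRNAs closest to each, and the 4 most abundant tested members of each list. The remaining list members are named because they were called in the comparison described. The exceptions are miR-150-5p and miR-181a-5p, named after their values were seen.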

Additional observations from a re-analysis of the deposited data

How the results depend on the processing

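Of 90 refits of the members (15 alternatives for each member and comparison), 71 kept direction and side of the threshold. In ConA+Vehicle against Vehicle the call of miR-26a-5p ended with upper-quartile factors (log2 -0.58), with no filter (-0.68), in the fit of 2 against 2 libraries (-0.60) and when any library was left out (-0.69 to -0.51). In ConA+D8THC against Vehicle miR-26a-5p, at -0.52, was called with the replicate block (-0.52, adjusted p = 0.0182). Uncalled values near 0 changed sign. For miR-26a-5p in ConA+D8THC against ConA+Vehicle this was -0.010 with upper-quartile factors. For miR-26b-5p it was -0.052 without Vehicle replicate 2 in ConA+Vehicle against Vehicle (-0.052 to 0.31 over left-out libraries) and 0.0018 with the dominant miRNAs left out in ConA+D8THC against ConA+Vehicle. In ConA+D8THC against Vehicle it was 0.054 with library totals, 0.042 with 2 against 2 libraries, 0.065 with the dominant miRNAs left out, and -0.20 to 0.15 over left-out libraries. Among opposite strands, miR-26a-2-3p changed sign without ConA+Vehicle replicate 2 in ConA+D8THC against ConA+Vehicle (0.12, range -0.60 to 0.12) and without Vehicle replicate 2 in ConA+D8THC against Vehicle (-0.042, range -0.042 to 0.56). The causes were not tested.

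The scalings moved the median of all miRNAs by up to 0.17 on the log2 scale (ConA+D8THC against ConA+Vehicle, dominant miRNAs left out). Relative to that median, miR-26a-5p in ConA+Vehicle against Vehicle was at -0.72 in the main analysis and between -0.88 and -0.65 in all settings.

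All miRNAs called numbered 109 in ConA+Vehicle against Vehicle (67 to 129 over left-out libraries) and 97 in ConA+D8THC against Vehicle (63 to 112). In ConA+D8THC against ConA+Vehicle there were 11, against 17 with upper-quartile factors, 19 with no filter, 17 in DESeq2, 44 with the replicate block, 18 with 2 against 2 libraries and 8 to 40 over left-out libraries. Replicate numbers are shared by the groups but no source says that they pair the samples. Deviations of same-numbered libraries correlated at 0.20, 0.24 and 0.07 between groups across miRNAs, so the block was not used in the main analysis. With it, the list of MYC-lowered families had 5 higher calls in ConA+Vehicle against Vehicle (1 without it) and 4 in ConA+D8THC against Vehicle (0 without it), and the resting lymphocyte list 4 in ConA+Vehicle against Vehicle (2 without it). The guide strands had at least 5354 counts in every library and the opposite strands 0 to 25, so that depth limits the values of the opposite strands.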
